A study of Mus musculus with 16 samples.

Results

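The genes described here encode enzymes and regulators of de novo sphingolipid synthesis. They are the catalytic subunits of serine palmitoyltransferase (Sptlc1, Sptlc2 and Sptlc3), its small subunits (Sptssa and Sptssb), its inhibitor Ormdl3, the ceramide synthases Cers2, Cers5 and Cers6, and the desaturase Degs1. All 10 were found by symbol among the 27179 entries of the deposited table, and 9 of the 10 passed the filter on low values, Sptlc3 being the exception. The 10 genes were selected on these same libraries, with their levels in the 4 groups already known. Their levels and differences are therefore given as a description and carry no p-value. Where these differences, or counts of them, are set against a threshold below, this describes the values and tests nothing.

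Cells carrying PDGFRb, a receptor of perivascular and stromal cells, had been sorted from inguinal white fat of C57BL/6 mice and cultured with 10% serum. They formed 2 populations of adipose progenitors, named DPP4_neg APC and DPP4_pos APC in the labels after the surface peptidase DPP4. Treatment lasted 4 h and consisted of isoproterenol, which activates beta-adrenergic receptors, or its PBS vehicle, with 4 libraries in each of the 4 groups. The labels give the isoproterenol dose as 10 mM, and whether that unit is right could not be checked. No genotype other than the C57BL/6 strain, no age and no sex is given, and the labels do not say whether libraries of a group came from separate animals or cultures, so the errors measure only the spread between these libraries. In bulk RNA, fewer cells expressing a gene and less RNA per cell cannot be told apart.

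Serine palmitoyltransferase joins serine to a fatty acyl-CoA in the endoplasmic reticulum, the first committed step of sphingolipid synthesis. Its catalytic core pairs Sptlc1 with Sptlc2 or Sptlc3, a small subunit raises its activity and shapes which acyl-CoA it takes, and ORMDL proteins restrain it when sphingolipids are plentiful. Ceramide synthases then attach a fatty acid whose length depends on the isozyme, and Degs1 desaturates dihydroceramide to ceramide, the branch point to sphingomyelin, glycosphingolipids, ceramide 1-phosphate and sphingosine 1-phosphate.

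Sptssb, the small subunit that lets the enzyme use longer acyl-CoAs, was nearly silent under vehicle and present in every isoproterenol library of both populations. Its level is the normalized count, the reads of a gene divided by a size factor for the library. The DPP4_neg vehicle libraries held 0.763, 1.95, 0.56 and 0 normalized counts of Sptssb, and the DPP4_pos vehicle libraries held 0, 0.743, 2.66 and 0. With isoproterenol the DPP4_neg libraries held 231.6, 268.7, 239.8 and 195.6. The DPP4_pos libraries given isoproterenol held 3370, 3575, 3630 and 3369. No isoproterenol library overlapped a vehicle library, and no DPP4_pos isoproterenol library overlapped a DPP4_neg one. In whole reads, 4 reads in the DPP4_neg vehicle group stood against 953 with isoproterenol, a ratio of normalized reads of 334 with a 95% counting interval of 130 to 1229. In DPP4_pos APCs, 4 reads stood against 9328, a ratio of 4153 (1622 to 15247). Under isoproterenol the DPP4_pos libraries held 14.6 times the DPP4_neg level (13.6 to 15.6), while under vehicle the ratio was 1.17 (0.219 to 6.3), and no difference was detectable at that depth. These intervals cover counting error only.

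On the scale of log2(normalized count + 1), used for every log2 difference here, Sptssb differed by 7.11 ± 0.32 (standard error) between isoproterenol and vehicle in DPP4_neg APCs and by 11.10 ± 0.32 in DPP4_pos APCs. The difference between the responses was 3.99 ± 0.46. Since the vehicle levels lie near 0, these values depend on the pseudocount, and edgeR on whole reads gave 8.16 and 11.79. Sptssb passed the filter only through its isoproterenol libraries, so a call in those comparisons was bound to follow. Ranked by log2 difference, its increase was number 7 of the 14005 genes tested in DPP4_neg APCs and number 1 in DPP4_pos APCs. This rank comes from the values on which the gene was selected and rests on the same pseudocount, so it is a description only.

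Sptssa, the small subunit present in all libraries, was at 592.9 ± 19.6 normalized counts (SD, n = 4) in DPP4_neg vehicle and 638.0 ± 20.8 in DPP4_neg isoproterenol libraries. It was at 747.0 ± 43.9 and 721.1 ± 62.5 in the same treatments of DPP4_pos APCs. The treatment groups overlapped in both populations, with log2 differences of 0.11 ± 0.06 and -0.05 ± 0.06. Under vehicle Sptssa was higher in DPP4_pos than in DPP4_neg APCs by 0.33 ± 0.06 without overlap, and under isoproterenol by 0.17 ± 0.06 with overlap. The scaling bears on Sptssa: with quantile normalization its response in DPP4_pos APCs became -0.18. The difference between populations under isoproterenol was 0.08 with quantile normalization and 0.13 with edgeR. The difference between responses was -0.16 ± 0.08. It was -0.21 with TMM factors in place of the deposited size factors, -0.22 with edgeR and -0.29 with quantile normalization.

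Per kilobase of exon, the scale on which different genes can be compared, Sptssb made up 21.2 ± 1.75% of the summed small subunits in DPP4_neg isoproterenol libraries and 78.1 ± 1.18% in DPP4_pos isoproterenol libraries. Its share was 0.102 ± 0.104% and 0.0796 ± 0.117% in the DPP4_neg and DPP4_pos vehicle libraries. The summed small subunits stood at 440.9 ± 14.5 normalized counts per kb in DPP4_neg vehicle, 602.1 ± 30.6 in DPP4_neg isoproterenol, 555.5 ± 33.2 in DPP4_pos vehicle and 2445 ± 111 in DPP4_pos isoproterenol libraries. In DPP4_pos APCs given isoproterenol, then, Sptssb at 1909 per kb exceeded Sptssa at 535.7 per kb, whereas in DPP4_neg APCs Sptssb at 128.1 per kb stayed below Sptssa at 474.0 per kb.

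**Figure D1:**
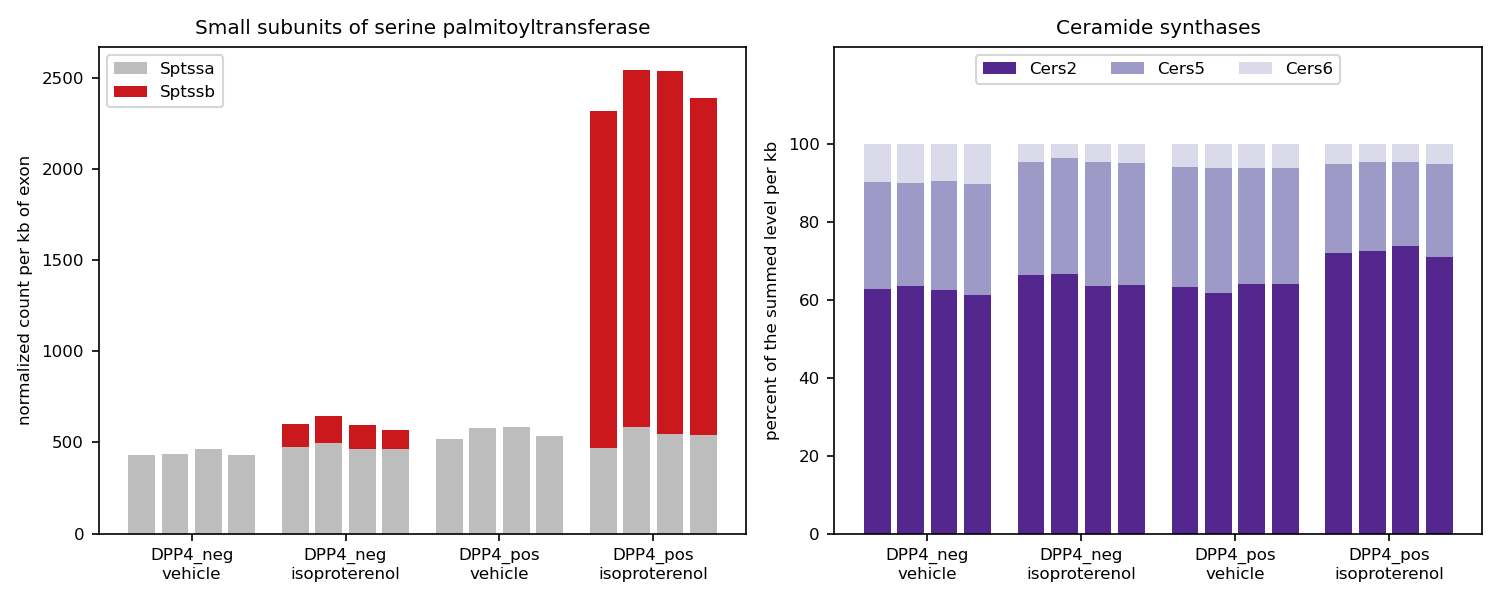
Left, level of Sptssa and Sptssb in normalized counts per kb of exon, stacked, 1 bar per library. Right, share of Cers2, Cers5 and Cers6 in their summed level per kb, in percent, 1 bar per library. Sptssb is visible only in the 8 isoproterenol libraries and forms the larger part of the bar only in the 4 DPP4_pos ones.

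Sptssb lies on chromosome 3 (chr3:69819538-69861363, GRCm38) and Sptssa on chromosome 12 (chr12:54645374-54656572). Their promoters are printed because the paralogs differed so widely in their response, and that of Ormdl3 because this inhibitor fell in both populations and was the only one of the 10 whose promoter window held a full cAMP response element. The sequences are from RefSeq (GRCm38.p6), run from 250 bases before to 50 bases after the annotated start, and are written 5′ to 3′ on the gene's strand, which is the minus strand for all 3. They are the windows chr3:69859845-69860144 for Sptssb, chr12:54656523-54656822 for Sptssa and chr11:98587196-98587495 for Ormdl3. Capitals mark matches on either strand to a full or short cAMP response element, a C/EBP site or a CCAAT box.
Sptssb: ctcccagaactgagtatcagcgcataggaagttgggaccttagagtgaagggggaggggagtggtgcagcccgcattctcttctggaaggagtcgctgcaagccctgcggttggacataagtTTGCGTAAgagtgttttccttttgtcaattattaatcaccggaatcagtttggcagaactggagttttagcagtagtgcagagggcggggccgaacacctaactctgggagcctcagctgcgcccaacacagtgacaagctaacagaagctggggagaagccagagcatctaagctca
Sptssa: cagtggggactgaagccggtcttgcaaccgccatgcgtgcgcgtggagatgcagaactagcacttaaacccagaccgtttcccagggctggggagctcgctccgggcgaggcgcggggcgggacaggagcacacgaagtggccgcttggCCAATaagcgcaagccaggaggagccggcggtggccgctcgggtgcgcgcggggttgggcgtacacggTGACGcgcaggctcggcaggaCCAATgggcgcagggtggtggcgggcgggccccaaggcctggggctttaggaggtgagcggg
Ormdl3: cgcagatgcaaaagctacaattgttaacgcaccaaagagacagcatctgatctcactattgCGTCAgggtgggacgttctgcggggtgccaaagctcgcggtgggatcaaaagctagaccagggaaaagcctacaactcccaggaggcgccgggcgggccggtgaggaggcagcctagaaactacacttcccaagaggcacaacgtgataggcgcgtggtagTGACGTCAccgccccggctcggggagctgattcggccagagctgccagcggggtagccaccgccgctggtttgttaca

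The motifs were picked after the sequences had been seen, and a match is a run of letters, not a bound site. Whether any match, the full element of Ormdl3 included, bears on a response to isoproterenol was not tested. The Sptssb window held a C/EBP match (TTGCNNAA), 128 bases before the start and read as TTGCGTAA, a motif present in 10.8% of the 32851 mouse promoters of the same length. The Sptssa window held 1 short cAMP response element (TGACG, in 20.8% of promoters) and 2 CCAAT boxes (CCAAT, in 37.4%). The full element (TGACGTCA, in 1.79%), which contains the short element on both strands, began 28 bases before the start of Ormdl3. Short elements were found for Cers6, Ormdl3, Sptlc1 and Sptssa, C/EBP matches for Cers2, Sptlc3 and Sptssb, and GC boxes (GGGCGG, in 35.7%), left in lower case, for 7 of the 10. No window held an AP-1 match (TGANTCA, in 7.81%) or an NR4A match (AAAGGTCA, in 1.51%). Base composition separated the paralogs: the Sptssb window had 52.7% G and C, the median of all promoters, and 9 CpG, and the Sptssa window 70.0% and 31 CpG, more CpG than 89.4% of promoters. The start used for Sptssb lies 1469 bases inside the gene's annotated edge, so a window at that edge was not searched. The starts used for Degs1, Cers6 and Sptlc1 lie 659, 296 and 56 bases inside. Cers2 was searched at starts 419 and 4059 bases inside, and its C/EBP matches lie in the window of the latter.

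The common catalytic subunit Sptlc1 (chr13:53332748-53377417) and its partner Sptlc2 (chr12:87305058-87388355) both rose with isoproterenol. Sptlc1 went from 612.7 ± 22.5 to 754.1 ± 35.1 normalized counts in DPP4_neg APCs and from 623.1 ± 14.2 to 873.8 ± 18.8 in DPP4_pos APCs, with log2 differences of 0.30 ± 0.04 and 0.49 ± 0.04. The lowest isoproterenol library of either population, at 719.3, lay above the highest vehicle library, at 646.5. Under vehicle the populations overlapped, with a difference of 0.02 ± 0.04.

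For Sptlc2 the DPP4_neg vehicle libraries held 1402, 1447, 1450 and 1451 normalized counts and the isoproterenol libraries 1622, 1614, 1514 and 1607. The DPP4_pos vehicle libraries held 2239, 1990, 2165 and 2158 and the isoproterenol libraries 2834, 2760, 2766 and 2661. All 4 groups were separate, in the order DPP4_neg vehicle, DPP4_neg isoproterenol, DPP4_pos vehicle, DPP4_pos isoproterenol. The difference between populations, 0.57 ± 0.04 under vehicle and 0.79 ± 0.04 under isoproterenol, was larger than the response in either, 0.14 ± 0.04 in DPP4_neg and 0.37 ± 0.04 in DPP4_pos APCs.

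The small responses of DPP4_pos APCs depend on how libraries are scaled. Summed normalized counts averaged 18515772 in DPP4_pos isoproterenol libraries and 15319364 to 16155351 in the other groups. Quantile normalization took the Sptlc2 response in DPP4_pos APCs to 0.04 and turned its difference between responses from 0.22 ± 0.05 to -0.05. For Sptlc1 it gave responses of 0.31 and 0.34, but the difference between them, 0.19 ± 0.06, became 0.03. With TMM scaling and with edgeR that difference was 0.14.

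Sptlc3 (chr2:139493913-139637061), the alternative partner, had 11, 1, 4 and 3 reads in the DPP4_neg vehicle, DPP4_neg isoproterenol, DPP4_pos vehicle and DPP4_pos isoproterenol groups. All 4 DPP4_neg vehicle libraries held 1.68 to 2.29 normalized counts, and 3 of the 4 DPP4_neg isoproterenol libraries were at 0. The ratio of normalized reads between those groups, isoproterenol to vehicle, was 0.128 with a 95% counting interval of 0.00296 to 0.878. It rests on 1 read against 11, and the interval covers counting error only. In DPP4_pos APCs the same ratio was 1.34 (0.196 to 7.9). Between populations, DPP4_pos to DPP4_neg, the ratio was 0.427 (0.0991 to 1.44) under vehicle and 4.47 (0.359 to 235) under isoproterenol. Sptlc3 was at most 0.325 ± 0.0457% of the Sptlc2 and Sptlc3 levels per kb, in DPP4_neg vehicle libraries.

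Ormdl3 (chr11:98581294-98587245), the inhibitor of the complex, fell in both populations. Its level went from 1357 ± 34.6 to 1034 ± 26.4 normalized counts in DPP4_neg APCs and from 1165 ± 46.1 to 927.5 ± 44.4 in DPP4_pos APCs. The log2 differences were -0.39 ± 0.04 and -0.33 ± 0.04, and vehicle and isoproterenol libraries did not overlap within a population. DPP4_pos libraries were lower than DPP4_neg ones by 0.22 ± 0.04 under vehicle and 0.16 ± 0.04 under isoproterenol. The difference between the responses, 0.06 ± 0.06, took the opposite sign, -0.07, under quantile normalization.

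**Figure D2:**
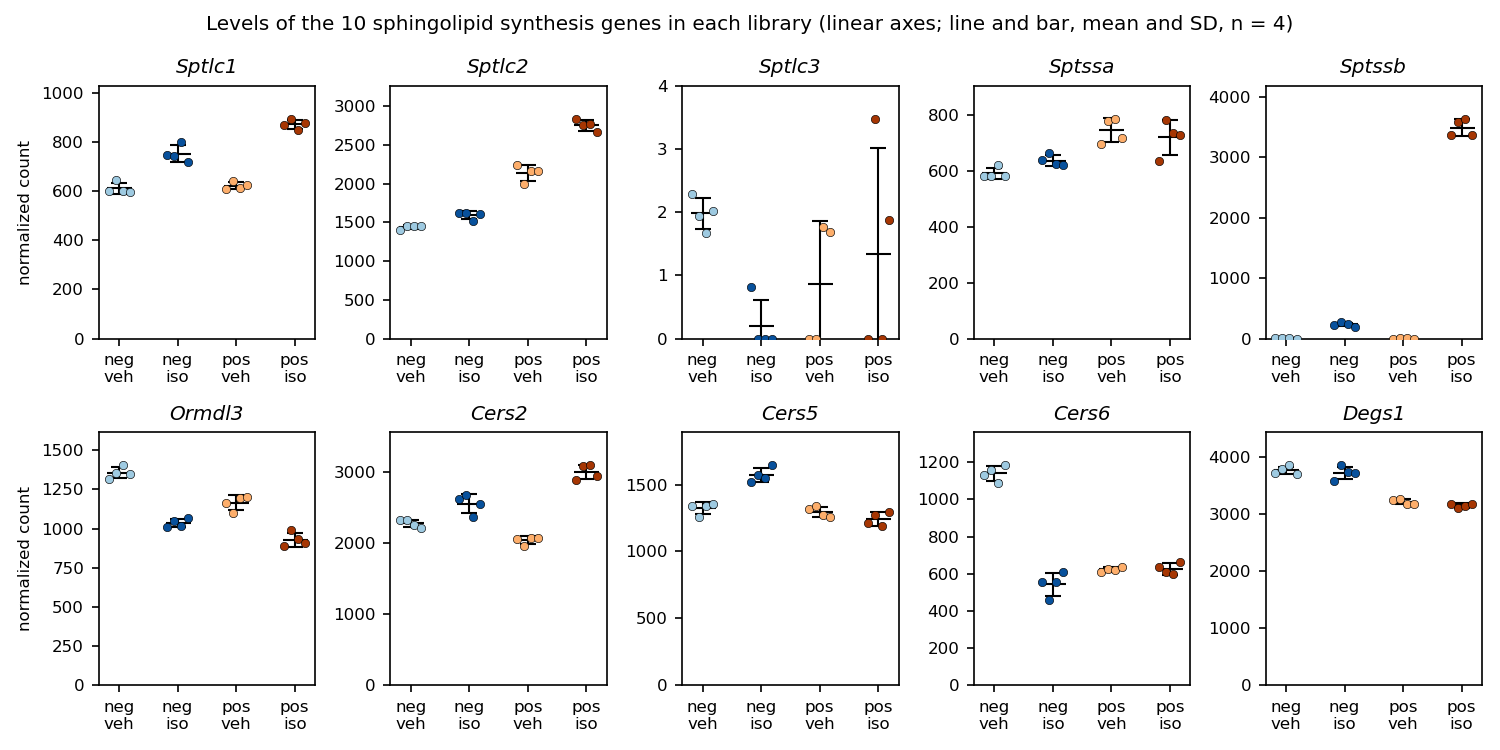
Normalized counts of the 10 genes in each of the 16 libraries, 1 panel per gene with its own linear axis from 0. Points are libraries, the line and bar are the mean and SD of 4 libraries, neg and pos are DPP4_neg and DPP4_pos APCs, veh is vehicle and iso is isoproterenol. Sptssb is near 0 in both vehicle groups and reaches 3369 to 3630 in DPP4_pos isoproterenol libraries, while Cers6 is high only in DPP4_neg vehicle.

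Among the ceramide synthases, Cers6 (chr2:68861145-69114284), which makes ceramides with long-chain fatty acids such as palmitate, was high in a single group. The DPP4_neg vehicle libraries held 1130, 1158, 1090 and 1183 normalized counts and the DPP4_neg isoproterenol libraries 556.3, 455.9, 553.7 and 606.4. The DPP4_pos libraries held 609.4, 625.0, 619.1 and 637.9 under vehicle and 638.2, 606.3, 596.2 and 665.2 under isoproterenol. The DPP4_neg vehicle libraries thus lay above the other 12, and isoproterenol brought DPP4_neg APCs to 543.1 ± 63.0, next to the 622.8 ± 11.9 of DPP4_pos vehicle libraries. The log2 difference was -1.08 ± 0.06 in DPP4_neg APCs and 0.01 ± 0.06 in DPP4_pos APCs, and the responses differed by 1.08 ± 0.09. The DPP4_pos value became -0.09 with quantile normalization and -0.04 with TMM scaling. Under isoproterenol the populations overlapped, with a difference of 0.21 ± 0.06.

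Cers2 (chr3:95314771-95323599), the synthase of very-long-chain ceramides, went from 2279 ± 52.2 to 2554 ± 132 normalized counts in DPP4_neg APCs and from 2042 ± 51.6 to 3002 ± 102 in DPP4_pos APCs. The isoproterenol libraries lay above the vehicle libraries of their population in both cases. The log2 differences were 0.16 ± 0.04 and 0.56 ± 0.04 and differed by 0.39 ± 0.05. DPP4_pos APCs were thus lower than DPP4_neg under vehicle, by 0.16 ± 0.04, and higher under isoproterenol, by 0.23 ± 0.04. That second difference vanished under quantile normalization, at -0.0024, where the DPP4_pos response was 0.23. Cers2 shares 75 exon bases with Setdb1 on the opposite strand, a gene at a mean of 810.1 normalized counts, and the sources used here do not say whether counting used strand.

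Cers5 (chr15:99735592-99772515), the other long-chain synthase, went from 1323 ± 45.1 to 1570 ± 53.0 normalized counts in DPP4_neg APCs, a log2 difference of 0.25 ± 0.04 without overlap. In DPP4_pos APCs it stood at 1297 ± 37.8 under vehicle and 1242 ± 52.3 under isoproterenol, with overlap and a difference of -0.06 ± 0.04. The responses differed by -0.31 ± 0.06. With TMM scaling the DPP4_pos difference was -0.11 and with quantile normalization -0.29.

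Per kb, Cers2 was the most abundant of the 3 synthases in every group and Cers6 the least. The share of Cers2 was 62.6 ± 1.05% in DPP4_neg vehicle, 65.2 ± 1.58% in DPP4_neg isoproterenol, 63.3 ± 1.1% in DPP4_pos vehicle and 72.4 ± 1.21% in DPP4_pos isoproterenol libraries. Its range of 71.1 to 74% in DPP4_pos isoproterenol libraries lay above that of the other 12 libraries, 61.2 to 66.7%. Cers6 held 9.82 ± 0.369% in DPP4_neg vehicle and 4.36 ± 0.544% in DPP4_neg isoproterenol libraries. Its share was 6.06 ± 0.149% and 4.75 ± 0.313% under vehicle and isoproterenol in DPP4_pos APCs. The share of Cers5 was 27.6 ± 0.98%, 30.5 ± 1.18%, 30.6 ± 1.08% and 22.8 ± 0.948% in the same order of groups. Not divided by exon length, the share of Cers6 in DPP4_neg vehicle libraries was 24%, since its annotated exons sum to 7062 bases and those of Cers2 to 2216.

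Degs1 (chr1:182275964-182282854), the desaturase, was at 3767 ± 66.6 and 3721 ± 112 normalized counts under vehicle and isoproterenol in DPP4_neg APCs and at 3218 ± 48.5 and 3152 ± 39.5 in DPP4_pos APCs. Treatment groups overlapped in both populations, with log2 differences of -0.02 ± 0.03 and -0.03 ± 0.03. DPP4_pos APCs were lower than DPP4_neg by 0.23 ± 0.03 under vehicle and 0.24 ± 0.03 under isoproterenol, without overlap. Quantile normalization gave responses of -0.10 and -0.37. With TMM scaling the response was -0.01 in DPP4_neg APCs and -0.07 in DPP4_pos APCs.

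Set in order per kb, Degs1 led in 3 of the groups, at 1839 in DPP4_neg vehicle, 1817 in DPP4_neg isoproterenol and 1571 in DPP4_pos vehicle libraries, followed by Cers2 at 1029, 1152 and 921.3. In DPP4_pos isoproterenol libraries Sptssb at 1909 stood first, then Degs1 at 1539 and Cers2 at 1355. In that group the catalytic subunits were at 410.6 per kb for Sptlc2 and 335.3 for Sptlc1, and Ormdl3 was at 424.7.

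**Figure D3:**
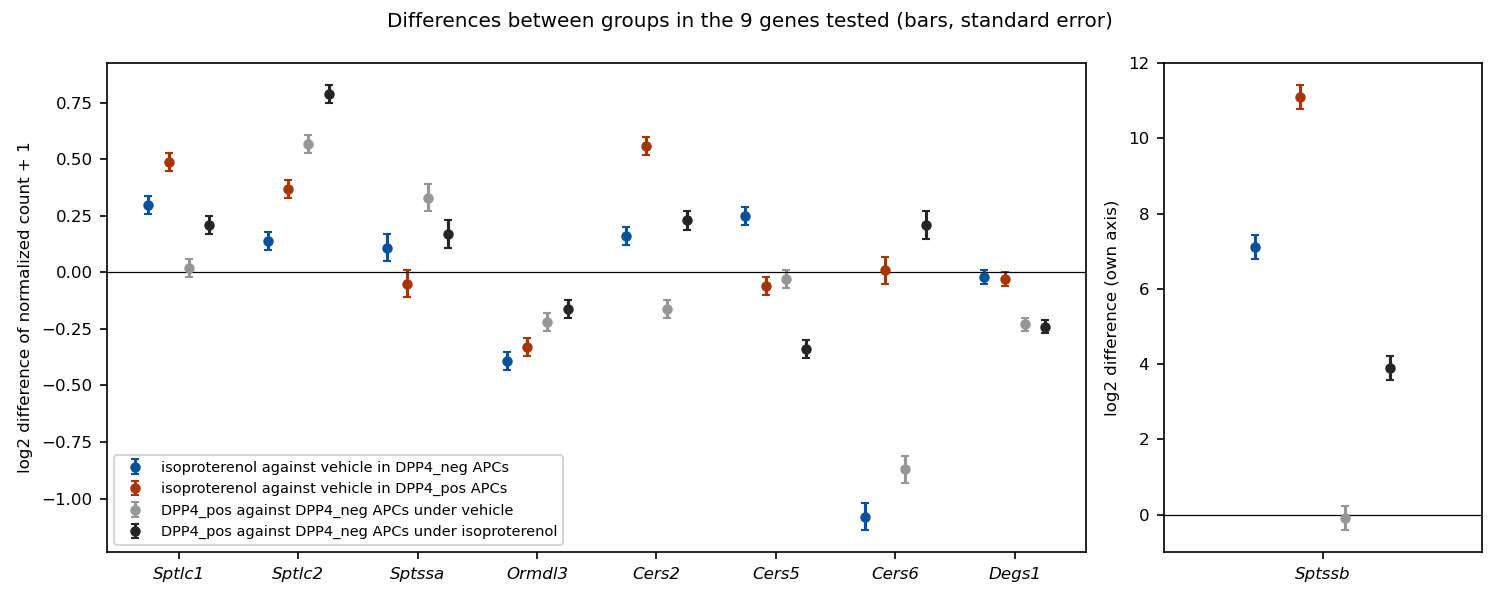
Log2 difference of normalized count + 1 for the 9 genes tested, in 4 comparisons marked by colour, with bars for the standard error, and with Sptssb on an axis of its own. Cers6 has a difference of -1.08 in DPP4_neg APCs and 0.01 in DPP4_pos APCs, and Sptssb reaches 11.10.

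A gene was called when its adjusted p was under 0.05 in limma. Of the 9 genes tested, 5 were higher and 2 lower with isoproterenol in DPP4_neg APCs, where 32.1% of all 14005 genes were called higher and 33.6% lower. In DPP4_pos APCs 4 were higher and 1 lower, against 39.4% and 43.3% of all genes. That balance depends on the scaling: it was 4 higher and 3 lower with TMM scaling and 3 higher and 4 lower with quantile normalization. DPP4_pos APCs were higher than DPP4_neg in 2 and lower in 4 under vehicle (31.6% and 35.0% of all genes), and higher in 6 and lower in 3 under isoproterenol (37.4% and 37.0%). The response was more positive in DPP4_pos APCs for 5 genes and more negative for 1 (31.6% and 31.0%), a balance that became 4 and 2 with TMM scaling and 3 and 3 with quantile normalization. Quantile normalization also left 3 higher and 3 lower under isoproterenol between the populations. Since the genes were picked with these values known and most of the 14005 genes tested were called in each comparison, nothing is read from the counts. The median log2 difference of the 9 was 0.14, 0.01, -0.09, 0.21 and 0.19 in these 5 comparisons, beside -0.02, -0.05, -0.01, -0.00 and -0.02 over all genes.

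The wider pathway was described from a list of 68 other sphingolipid genes by role, of which 55 were tested. With isoproterenol 22 of the 55 rose, 20 fell and 13 were not called in DPP4_neg APCs, and 23 rose, 26 fell and 6 were not called in DPP4_pos APCs. The medians were 0.06 and -0.03. DPP4_pos APCs were higher than DPP4_neg in 27 and lower in 18 under vehicle (median 0.11), and higher in 22 and lower in 17 under isoproterenol (median 0.07). The response was more positive in DPP4_pos APCs for 17 and more negative for 24 (median -0.08). In each comparison the called genes of the list were divided between both directions. Of all genes tested, 32.1% were called higher and 33.6% lower with isoproterenol in DPP4_neg APCs, and 39.4% and 43.3% in DPP4_pos APCs. Between populations the shares were 31.6% and 35.0% under vehicle and 37.4% and 37.0% under isoproterenol. For the difference between responses they were 31.6% and 31.0%. These shares also stand beside the counts by role below, and nothing is read from those counts. Adjusted p-values below are from limma with Benjamini-Hochberg adjustment over all genes. The list was made with earlier results of these data known, and the named genes were picked for a large called difference. A low adjusted p-value in some comparison was therefore bound to occur for each gene so named.

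**Figure D4:**
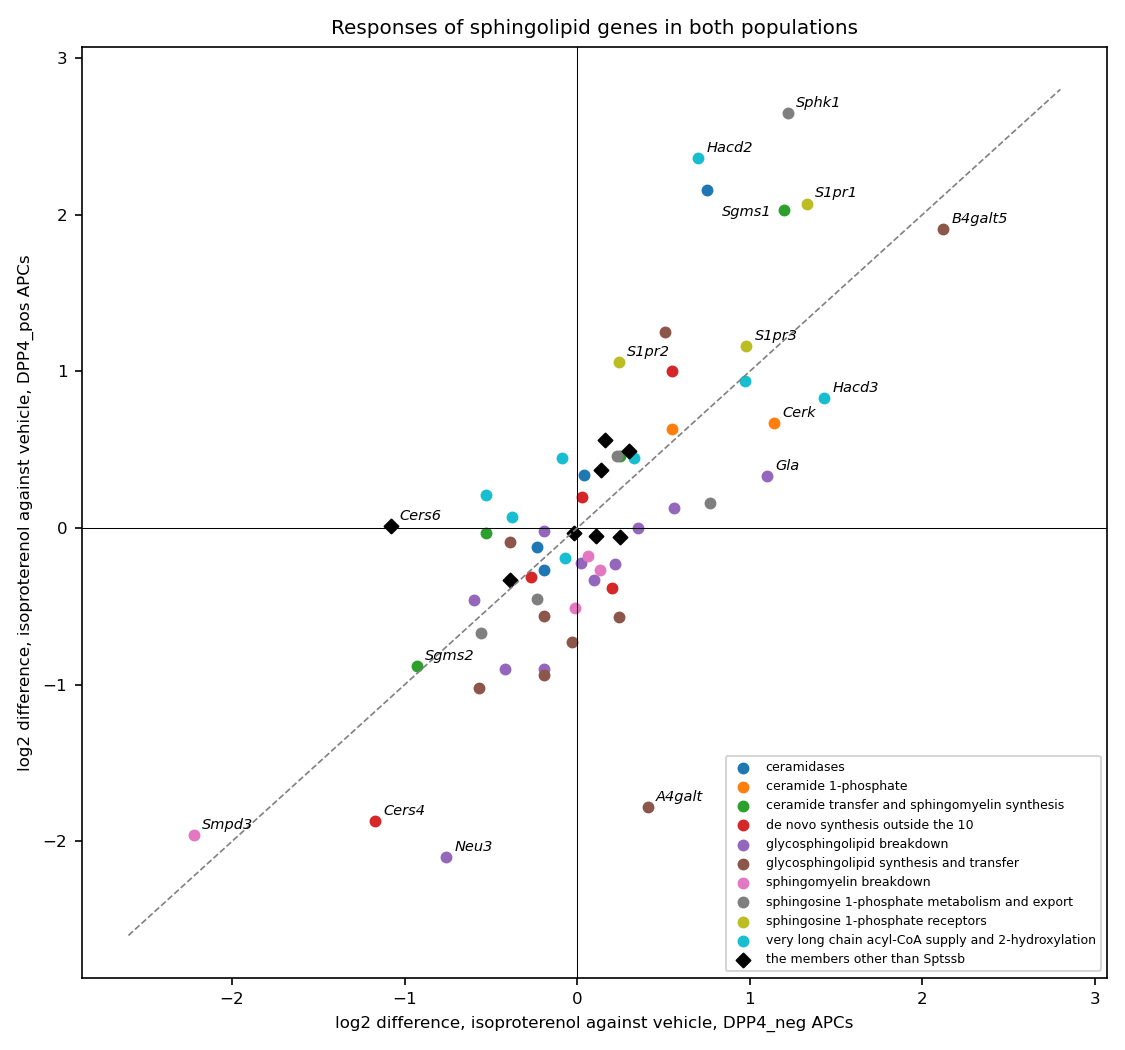
Log2 difference between isoproterenol and vehicle in DPP4_neg APCs (horizontal) and DPP4_pos APCs (vertical) for the 55 pathway genes tested, coloured by role, and for 8 of the 10 genes as diamonds (Sptssb lies outside the axes, Sptlc3 was not tested). On the dashed line the responses are equal. Sphk1, Hacd2, Sgms1 and S1pr1 lie above it, Gla, Cerk and Hacd3 below, and A4galt lies at 0.41 in DPP4_neg and -1.78 in DPP4_pos APCs.

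Of the other genes of de novo synthesis, 1 of 5 rose and 2 fell in DPP4_neg APCs, and 1 rose and 3 fell in DPP4_pos APCs. Cers4, another ceramide synthase, fell in both, from 333.5 to 147.4 normalized counts in DPP4_neg (log2 difference -1.17 ± 0.08, adjusted p = 3.57e-11) and from 226.8 to 61.7 in DPP4_pos APCs (-1.87 ± 0.08, adjusted p = 4.1e-15), without overlap. Kdsr, the reductase that follows serine palmitoyltransferase, fell by 0.27 ± 0.05 (adjusted p = 0.00013) and by 0.31 ± 0.05 (adjusted p = 1.71e-05). Ormdl1, a paralog of Ormdl3, had a difference of 0.20 ± 0.09 in DPP4_neg APCs (adjusted p = 0.0738) and fell by 0.38 ± 0.09 in DPP4_pos APCs (adjusted p = 0.000852), where quantile normalization turned it to 0.07. Cers1 was listed at 0 in all 16 libraries, and Cers3 had 7 to 23 reads per group.

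In the branch to sphingomyelin, Sgms1, the Golgi synthase, rose in both populations, from 512.4 to 1178 normalized counts in DPP4_neg (1.20 ± 0.06, adjusted p = 7.75e-14) and from 415.4 to 1691 in DPP4_pos APCs (2.03 ± 0.06, adjusted p = 2.72e-18). Its responses differed by 0.83 ± 0.08 (adjusted p = 2.22e-08). Sgms2, the plasma membrane synthase, fell in both, by 0.93 ± 0.09 (adjusted p = 1.48e-08) and 0.88 ± 0.09 (adjusted p = 1.65e-08). Cert1, which carries ceramide from the endoplasmic reticulum to the Golgi, fell by 0.53 ± 0.06 in DPP4_neg APCs (adjusted p = 2.28e-08) and had a difference of -0.03 ± 0.06 in DPP4_pos APCs (adjusted p = 0.585).

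Of the 4 sphingomyelin-degrading genes, 1 fell in DPP4_neg APCs and all 4 fell in DPP4_pos APCs. Smpd3, the neutral sphingomyelinase of the Golgi and plasma membrane, fell by 2.22 ± 0.15 and 1.96 ± 0.15 (adjusted p = 2.64e-11 and 9.89e-11). Smpd1, the lysosomal acid sphingomyelinase, fell by 0.27 ± 0.06 in DPP4_pos APCs (adjusted p = 0.000335) and had a difference of 0.13 ± 0.06 in DPP4_neg APCs (adjusted p = 0.069). Smpd2 fell by 0.51 ± 0.08 in DPP4_pos APCs (adjusted p = 5.22e-06). In DPP4_neg APCs its difference was -0.01 ± 0.08 (adjusted p = 0.956).

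Of 5 genes of sphingosine 1-phosphate metabolism and export, 3 rose and 1 fell in each population. Sphk1, the inducible sphingosine kinase, rose from 242.8 to 564.8 normalized counts in DPP4_neg (1.22 ± 0.09, adjusted p = 1.2e-10) and from 204.1 to 1281 in DPP4_pos APCs (2.65 ± 0.09, adjusted p = 5.59e-17), and the responses differed by 1.43 ± 0.13 (adjusted p = 4.25e-09). Of the receptors, 3 of 3 tested rose in both populations, also under quantile normalization and TMM scaling. S1pr1 rose by 1.33 ± 0.05 and 2.07 ± 0.05 (adjusted p = 8.14e-16 and 1.38e-19), S1pr3 by 0.98 ± 0.06 and 1.16 ± 0.06 (8.08e-13 and 1.75e-14), and S1pr2 by 0.24 ± 0.03 and 1.06 ± 0.03 (1.2e-06 and 6.39e-18). The lyase Sgpl1, which ends the pathway by cleaving sphingosine 1-phosphate, fell by 0.56 ± 0.04 and 0.67 ± 0.04 (adjusted p = 9.19e-11 and 2.13e-12). The phosphatase Sgpp1 rose by 0.77 ± 0.04 in DPP4_neg APCs (adjusted p = 9.05e-14), while its rise of 0.16 ± 0.04 in DPP4_pos APCs (adjusted p = 0.000607) became -0.16 under quantile normalization.

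Cerk, the ceramide kinase, rose by 1.14 ± 0.05 and 0.67 ± 0.05 (adjusted p = 3.04e-14 and 1.5e-10) in DPP4_neg and DPP4_pos APCs, and Cptp, the transfer protein of its product, by 0.55 ± 0.07 and 0.63 ± 0.07 (1.1e-06 and 8.01e-08). Among the ceramidases, the acid enzyme Asah1 fell by 0.19 ± 0.03 and 0.27 ± 0.03 (adjusted p = 3.06e-05 and 1.25e-07). Asah2, the neutral enzyme, was higher in DPP4_pos than in DPP4_neg APCs by 0.91 ± 0.05 under vehicle (adjusted p = 1.74e-13). Acer3, an alkaline ceramidase, rose by 0.34 ± 0.07 in DPP4_pos APCs (adjusted p = 0.000218) and had a difference of 0.04 ± 0.07 in DPP4_neg APCs (adjusted p = 0.626).

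In the glycosphingolipid branch, 3 of 9 synthesis and transfer genes rose and 4 fell in DPP4_neg APCs, and 2 rose and 7 fell in DPP4_pos APCs. Ugcg, which makes glucosylceramide, was higher in DPP4_pos than in DPP4_neg APCs by 1.22 ± 0.03 under vehicle (adjusted p = 2.54e-18) and fell by 0.39 ± 0.03 with isoproterenol in DPP4_neg APCs (adjusted p = 9.84e-10). B4galt5, the lactosylceramide synthase, rose from 1317 to 5735 normalized counts in DPP4_neg (2.12 ± 0.05, adjusted p = 6.33e-19) and from 3446 to 12916 in DPP4_pos APCs (1.91 ± 0.05, adjusted p = 1.65e-18). A4galt, the Gb3 synthase, moved in opposite directions, by 0.41 ± 0.08 in DPP4_neg (adjusted p = 0.000124) and by -1.78 ± 0.08 in DPP4_pos APCs (adjusted p = 5.52e-15), a difference between responses of -2.19 ± 0.11 (adjusted p = 4.8e-13).

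Of 11 genes of glycosphingolipid breakdown, 4 rose and 5 fell in DPP4_neg APCs and 2 rose and 7 fell in DPP4_pos APCs. Gla, alpha-galactosidase A, rose by 1.10 ± 0.06 and 0.33 ± 0.06 (adjusted p = 1.04e-12 and 6.48e-05). Hexa, a subunit of beta-hexosaminidase, was higher in DPP4_pos than in DPP4_neg APCs by 1.33 ± 0.05 under vehicle (adjusted p = 8.36e-16). The sialidase Neu3 fell by 2.10 ± 0.28 in DPP4_pos APCs (adjusted p = 5.69e-07). In DPP4_neg APCs it was also called lower, at 82.0 normalized counts under vehicle and 48.5 under isoproterenol. That call was lost without either of 2 libraries, at -0.69 to -0.65. In the elongation cycle that supplies very-long-chain acyl-CoAs, the dehydratase Hacd2 rose by 0.70 ± 0.05 and 2.36 ± 0.05 (adjusted p = 7.66e-11 and 1.8e-20) and Hacd3 by 1.43 ± 0.04 and 0.83 ± 0.04 (2.8e-18 and 1.85e-14). Hacd1 fell by 0.53 ± 0.06 in DPP4_neg APCs (adjusted p = 2.42e-07) and rose by 0.21 ± 0.06 in DPP4_pos APCs (adjusted p = 0.00565).

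The 3 of the 10 genes with the widest range of group means were Sptssb, Cers6 and Sptlc2, and the genes most like each were sought among 11046 candidates by Pearson correlation over the 16 libraries. These correlations mostly reflect 4 group means, and they are given with no test. The closest to Sptssb were Pappa2 (r = 0.995), a protease of IGF-binding proteins, Pgd (0.994), an enzyme of the pentose phosphate pathway, Rnf149 (0.994), Ppp1r2 (0.993), an inhibitor of protein phosphatase 1, and the kinase Mapkapk2 (0.992). None of these was as low at rest: Pappa2 had 45.3 ± 9.21, 307.2 ± 26.5, 53.5 ± 8.71 and 888.9 ± 9.5 normalized counts in DPP4_neg vehicle, DPP4_neg isoproterenol, DPP4_pos vehicle and DPP4_pos isoproterenol libraries. The closest to Cers6 were Ctnnd1 (0.986), encoding p120 catenin, Slc6a6 (0.979), a taurine transporter, Adipor2 (0.974), an adiponectin receptor, Wtip (0.970) and Srf (0.967), a transcription factor. In the same order of groups Srf had 1590 ± 33.6, 522.6 ± 9.34, 590.9 ± 37.8 and 652.6 ± 46.1. The closest to Sptlc2 were Tgfbr2 (0.993), a TGF-beta receptor, Aldh7a1 (0.992), Layn (0.991), Cadm3 (0.990) and Pam (0.990).

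The libraries held 9823799 to 28627223 reads in genes. All 9 markers of PDGFRb+ stromal cells were present in every group. Their sums were 300754 to 313831 normalized counts under vehicle and 293632 to 329405 under isoproterenol in DPP4_neg libraries, with overlap. In DPP4_pos libraries they were 366819 to 378941 and 293989 to 300745, without overlap. With isoproterenol 3 of the 9 were called higher and 2 lower in DPP4_neg APCs, and 0 higher and 7 lower in DPP4_pos APCs. The shares of all genes were 32.1% and 33.6%, and 39.4% and 43.3%. Summed markers of leukocytes ran from 434.6 to 1795 per library with means of 612.0 ± 234 under vehicle and 1347 ± 489 under isoproterenol in DPP4_neg and of 689.8 ± 205 and 957.7 ± 308 in DPP4_pos APCs, with overlap in both. Summed endothelial markers were 208.2 to 236.8 under vehicle and 241.5 to 301.7 under isoproterenol in DPP4_neg libraries, and 1184 to 1248 and 1302 to 1419 in DPP4_pos libraries, without overlap in either. Summed mural markers were 8338 to 8575 under vehicle and 5640 to 5975 under isoproterenol in DPP4_neg libraries, and 1997 to 2099 and 1315 to 1463 in DPP4_pos libraries. Markers of mature adipocytes summed to 35737 to 41025 under vehicle and 13296 to 15930 under isoproterenol in DPP4_neg libraries, and to 13522 to 15156 and 4855 to 5660 in DPP4_pos libraries, with Lep at 0 in both isoproterenol groups. The adipocyte and mural sums and Cers6 were all highest in DPP4_neg vehicle libraries. On average both sums were lowest in DPP4_pos isoproterenol libraries, and Cers6 was lowest in DPP4_neg isoproterenol libraries. Whether these patterns are related was not tested. Summed epithelial and mesothelial markers were 617.3 to 822.8 under vehicle and 1316 to 1715 under isoproterenol in DPP4_neg libraries, without overlap. In DPP4_pos libraries they were 87.7 to 136.2 and 122.1 to 178.6, with overlap. There 5 of the 6 markers were under 10 in every library, and Epcam, Krt8, Krt18 and Msln were at 0 with isoproterenol. Krt19, the only marker of the list tested, was called higher with isoproterenol in both populations. The part of these other cell types in the levels of the 10 genes was not tested.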

How the data were processed

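RNA from 16 libraries, 500 ng each, was sequenced in 4 groups of 4. Per the submitters' processing notes, the tools were DESeq2 1.6.3, featureCounts 1.4.6, HISAT2 2.0.1 and Trim Galore 0.4.1, and the builds GRCm38 and mm10. Their settings, the annotation and the use of strand were not given in the sources used here. Deposited by the authors, the table holds a normalized signal, reads over a size factor of the library, per the file headers and the values. Whole reads were recovered for 100.0% of 280334 values above 0, within 0.001 reads, giving 9823799 to 28627223 reads in genes per library. Of 27179 entries, 958 carried no symbol (0.0926% of normalized counts) and are not named, 4224 were at 0 throughout, and 26 symbols written as dates were restored. Positions are from RefSeq (25275 identifiers matched GRCm38.p6), exon lengths from GENCODE vM21.

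Genes with a normalized count of at least 10 in at least 4 libraries (14005) were tested with limma 3.58.1 in R 4.3.3, with a mean-variance trend, on log2(normalized count + 1), in 1 fit of 4 group means over all libraries, with Benjamini-Hochberg adjustment and a threshold of 0.05. A fold on this scale understates the change of low genes. The step was tested on simulated data in which few genes changed. Most genes were called in the real data, so that check does not bear on the scaling of the libraries. Counting intervals are at 95% and cover counting error only.

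The 10 genes, the pathway and marker lists and the tests were chosen with earlier results of these data known. Named pathway genes are the up to 3 per role with the largest called difference and a mean of at least 50 normalized counts. Genes of like pattern are the 5 with the highest correlation. Alternatives were other pseudocounts, no filter, quantile and TMM (edgeR 4.0.16) scaling, edgeR and DESeq2 1.42.0 on recovered reads, a replicate block, fits of only 2 groups, each library left out, and shares not divided by length.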

Additional observations from a re-analysis of the deposited data

Results flagged for a closer look

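In 13 of 156 groups of 4 libraries, 1 library stood far from the other 3 by Dixon's criterion, which chance alone meets in about 1 group in 20. Among the 10 genes these were Sptlc1 at 646.5 normalized counts in DPP4_neg vehicle 2 (others 599.5 to 602.6), Sptlc2 at 1402 in DPP4_neg vehicle 1 (1447 to 1451) and at 1514 in DPP4_neg isoproterenol 3 (1607 to 1622), Sptlc3 at 0.81 in DPP4_neg isoproterenol 1 (others at 0), Sptssa at 622.2 in DPP4_neg vehicle 3 (582.6 to 584.2) and Cers2 at 1965 in DPP4_pos vehicle 2 (2059 to 2073). The Sptlc3 value rests on 1 read. Among the pathway genes they were Cerk at 726.4 in DPP4_neg isoproterenol 1, Sgms1 at 1793 in DPP4_pos isoproterenol 4, Cert1 at 821.5 in DPP4_neg isoproterenol 2, Cers4 at 242.3 in DPP4_pos vehicle 2, Gla at 757 in DPP4_pos isoproterenol 3, Smpd3 at 121.1 in DPP4_neg vehicle 4 and Hacd2 at 3984 in DPP4_pos isoproterenol 2.

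The difference between the responses of DPP4_pos and DPP4_neg APCs passed limma's threshold in 27 of 38 named genes, beside 62.6% of all genes tested. The named genes were chosen for their level or for a large difference, so nothing is read from that count. For the 10 genes, whose selection used these values, the log2 difference between responses (DPP4_pos minus DPP4_neg) was 0.19 for Sptlc1, 0.22 for Sptlc2, 3.99 for Sptssb, 0.39 for Cers2, -0.31 for Cers5 and 1.08 for Cers6. The response was more positive in DPP4_pos APCs for Hacd2 (1.66), Sphk1 (1.43), Sgms1 (0.83), S1pr2 (0.82), S1pr1 (0.74), Hacd1 (0.73), Cert1 (0.50), Ugcg (0.31), Acer3 (0.30) and Hexa (0.17). It was more negative for A4galt (-2.19), Neu3 (-1.33), Gla (-0.77), Cers4 (-0.69), Sgpp1 (-0.61), Hacd3 (-0.60), Ormdl1 (-0.58), Smpd2 (-0.51), Cerk (-0.47), Smpd1 (-0.40) and B4galt5 (-0.21). The smallest of these, Hexa, lost its call without any 1 of 12 of the 16 libraries (0.14 to 0.18) and in the edgeR and DESeq2 fits, at 0.11 and 0.16, and B4galt5 was not called without DPP4_pos vehicle 1, at -0.15.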

How the results depend on the processing

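The counts of called genes stayed within 1.5 times of their value in all 248 alternatives, although the balance of higher and lower among the 10 genes moved with the scaling. Most genes listed were called in the main fit, so the counts had little room to rise past that limit. Of the alternatives, 160 only left out 1 library. Between populations under isoproterenol, the number of the 10 genes called still ran from 6 to 9 over the other settings. Leaving out 1 library gave 41 to 43 and 47 to 50 pathway genes called for isoproterenol in DPP4_neg and DPP4_pos APCs, 40 to 46 and 35 to 39 between populations under vehicle and isoproterenol, and 39 to 41 for the difference between responses. It gave 7, 5, 6, 9 and 6 to 7 of the 10 genes in the same comparisons. Over 45 comparisons of the 10 genes, 1079 alternative values kept sign and side of the threshold, 13 crossed it upward, 7 downward and 17 changed sign. For named pathway genes 2946 kept both, 54 crossed downward and 4 changed sign.

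Quantile normalization changed the sign of the difference between responses for Sptlc2 (-0.05), Ormdl3 (-0.07), Hexa (-0.21) and Ugcg (-0.02), of Cers2 between populations under isoproterenol (-0.0024), and of the DPP4_pos response for Cers6 (-0.09), Ormdl1 (0.07) and Sgpp1 (-0.16). The Cers6 response in DPP4_pos APCs was -0.04 with TMM and edgeR, and -0.0031, -0.0021 and -0.02 without DPP4_pos vehicle 1, isoproterenol 1 and isoproterenol 4 (up to 0.03 without others). Sptssb between populations under vehicle, resting on 4 reads each, was 0.21 with edgeR, 0.23 with DESeq2, 0.18 without DPP4_neg vehicle 2 and 0.14 without DPP4_pos vehicle 1 or 4 (down to -0.49 without others). The Sptssa response in DPP4_pos APCs was 0.01 without DPP4_pos isoproterenol 1. For Degs1, the DPP4_neg response was 0.00081 without DPP4_neg isoproterenol 1, and the difference between responses 0.0048 without isoproterenol 2 (both down to -0.03 without others). The cause was not tested.

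Shares not divided by exon length were 26.8% and 82.9% for Sptssb in DPP4_neg and DPP4_pos isoproterenol, 0.138% for Sptlc3 in DPP4_neg vehicle, and, in DPP4_neg vehicle, DPP4_neg isoproterenol, DPP4_pos vehicle and DPP4_pos isoproterenol, 48.1%, 54.7%, 51.5% and 61.6% for Cers2 and 24%, 11.6%, 15.7% and 12.9% for Cers6. For Cers5 they were 33.7%, 32.7% and 25.5% in the last 3 of these. Leaving out each library, an alternative chosen after seeing the data, moved the Sptssb share to 20.7 to 22% and 77.6 to 78.5% in the isoproterenol groups.

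Libraries with the same replicate number did not pair: their deviations from group means correlated at r = -0.231 to 0.131 over 24 pairs, 1 of them over 0.1, against -0.18 to 0.163 for 72 other pairs, and 6 of 16 libraries correlated best with their own number. With the replicate block, 42 and 49 pathway genes were called for isoproterenol in DPP4_neg and DPP4_pos APCs, and no named gene changed its call. Depth limits Sptlc3 and vehicle Sptssb, which rest on 11 reads or fewer per group.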

Other observations

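Outside the rule for named genes, 3 low genes of the pathway and 1 abundant one had the following differences, by limma over all genes tested. They were chosen after their values were seen, so their adjusted p-values are a description only. Acer2, an alkaline ceramidase of the Golgi, rose from 32.0 to 54.2 normalized counts in DPP4_neg APCs (log2 difference 0.75 ± 0.17, adjusted p = 0.000553) and from 11.5 to 55.3 in DPP4_pos APCs (2.16 ± 0.17, adjusted p = 9.67e-11). Degs2, the desaturase that can also hydroxylate, stood at 22.6 and 33.8 normalized counts under vehicle and isoproterenol in DPP4_neg APCs (0.55 ± 0.17, adjusted p = 0.00621) and at 21 and 42.7 in DPP4_pos APCs (adjusted p = 1.11e-05), far under its paralog Degs1. Elovl4 had differences of 0.33 ± 0.18 (adjusted p = 0.109) and 0.45 ± 0.18 (adjusted p = 0.0235). Elovl6, which extends palmitate to stearate, the longer acyl-CoA, rose from 532.7 to 1045 normalized counts in DPP4_neg (0.97 ± 0.05, adjusted p = 2e-13) and from 1151 to 2214 in DPP4_pos APCs (0.94 ± 0.05, adjusted p = 1.31e-13).

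Across the 16 libraries, the level of Sptssb correlated with that of Sptlc1 at r = 0.98, with Cers2 at 0.93 and with Ormdl3 at -0.90 on the log2 scale, and that of Sptlc2 with Degs1 at -0.94. The libraries fall into 4 groups, and these values describe the group means and carry no test.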
